A study of Mus musculus with 6 samples.

Results

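The transforming growth factor beta (TGF-beta) pathway genes described here are 10 genes chosen by symbol, out of 22481 genes in the deposited table. They comprise 3 ligands (Tgfb1, Tgfb2, Tgfb3), 3 receptors (Tgfbr1, Tgfbr2, Tgfbr3) and 4 SMADs (Smad2, Smad3, Smad4, Smad7). RNA came from pulmonary B cells obtained by magnetic sorting (MACS) from lungs of C57BL/6 mice aged 3 months. There were 3 5xFAD libraries and 3 WT libraries. The 5xFAD mouse carries human transgenes with mutations of familial Alzheimer's disease, including APP, under the Thy1 promoter, which is used for expression in neurons. The labels name no treatment, no sex and no Cre or other allele, and do not say whether a library came from 1 animal or from a pool. The p-values therefore measure the spread between these libraries.

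TGF-beta is made as a latent complex, and must be released before it can bind a receptor. The active ligand binds the type II receptor TGFBR2, which phosphorylates the type I receptor TGFBR1. TGFBR1 then phosphorylates SMAD2 and SMAD3, which join SMAD4 and enter the nucleus to regulate transcription. SMAD7 is an inhibitory SMAD that blocks this step at the receptor, and it is itself a transcriptional target of the pathway. In B cells, TGF-beta is best known for directing class switching to IgA and for restraining proliferation.

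The upstream regions of Tgfb1 and Tgfb2 are shown because these ligands stood at the top and at the bottom of the level order among the 10 genes. Each is the 250 bases before the start of the gene in RefSeq on GRCm38.p6, written 5′ to 3′ on the gene's strand; 5 of the 10 genes had a window in that table. The Tgfb1 window is chr7:25686752-25687001 on the plus strand, and the Tgfb2 window is chr1:186705990-186706239 on the minus strand. Capitals mark the SP1 box letters GGGCGG, or CCGCCC on the other strand, and the TATA box letters TATAAA, or TTTATA on the other strand.
Tgfb1: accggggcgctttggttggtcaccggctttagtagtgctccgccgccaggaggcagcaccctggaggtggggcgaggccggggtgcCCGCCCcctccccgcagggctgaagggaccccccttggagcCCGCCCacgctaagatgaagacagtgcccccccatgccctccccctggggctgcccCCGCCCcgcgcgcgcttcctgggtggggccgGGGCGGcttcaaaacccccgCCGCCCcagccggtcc
Tgfb2: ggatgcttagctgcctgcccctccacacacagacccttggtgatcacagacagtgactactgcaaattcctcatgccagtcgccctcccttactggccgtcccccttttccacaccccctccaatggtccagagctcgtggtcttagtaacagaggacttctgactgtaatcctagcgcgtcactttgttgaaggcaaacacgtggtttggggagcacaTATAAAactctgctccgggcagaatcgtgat
The Tgfb1 window held 5 SP1 boxes and no TATA box, with 75.2% G and C and 21 CpG dinucleotides. The Tgfb2 window held 1 TATA box, 31 bases before the start, and no SP1 box, with 53.6% G and C and 8 CpG. Over 32851 RefSeq windows of the same length the median was 52.4% G and C and 6 CpG. SP1 boxes were in 32.7% of those windows and TATAAA in 12.4%, both strands counted. Neither window held the cAMP response element TGACGTCA or the AP-1 letters TGANTCA, which were in 1.55% and 6.75% of all windows. The Tgfb2 window also held 2 matches to the SMAD box CAGAC, letters found in 42.2% of all windows. These matches describe the letters in the windows, and no binding was measured.

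None of the 9 tested TGF-beta genes passed an adjusted p of 0.05 in 5xFAD over WT by edgeR's quasi-likelihood test, against 0.114% of all 9651 tested genes (0.104% higher and 0.0104% lower). Tgfb2 was below the minimum of a mean of 1 FPKM (fragments per kilobase of transcript, scaled to library depth) and was not tested. The median log2 fold change of the 9 genes was 0.07, with 5 above 0 and 4 below, beside a median of 0.11 over all genes tested. At an unadjusted p under 0.05, 1 gene was higher in 5xFAD (Smad4) and 1 was lower (Smad7), beside 8.46% and 3.55% of all genes tested and 12.0% in either direction. By DESeq2, 1 of the 9 (Smad4) was called, where 0.728% of all genes were, and limma on log2(FPKM + 1) called none of the 9 and no other gene. The estimated counts of the 2 genotypes did not overlap for Smad4 and Smad7, with Smad4 higher and Smad7 lower in 5xFAD, as for 14.3% and 3.98% of all genes, 18.3% together. In FPKM 17.4% of all genes did not overlap. In such RNA from a sorted population, fewer cells of a type and less RNA per cell cannot be told apart.

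**Figure D1:**
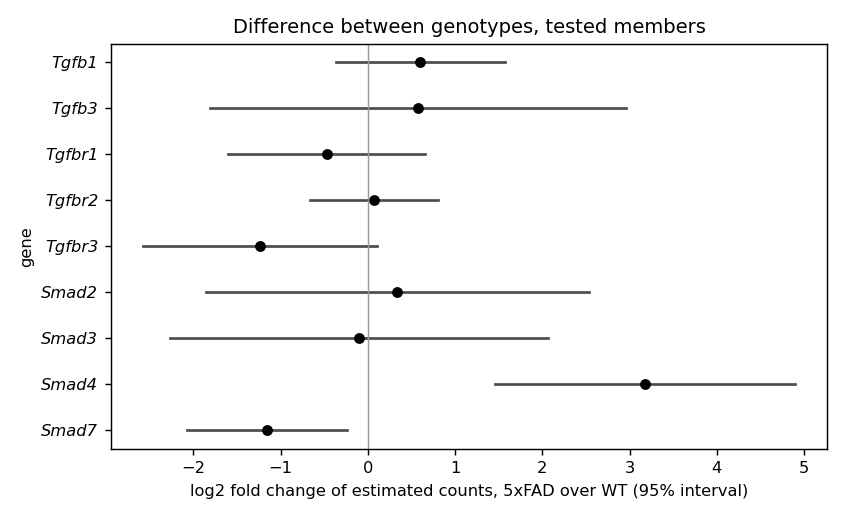
Log2 fold changes of estimated counts, 5xFAD over WT, for the 9 tested TGF-beta genes, as points with 95% intervals computed from the edgeR test. The intervals of Smad4 (1.45 to 4.90) and Smad7 (-2.08 to -0.24) do not reach 0, and those of the other 7 genes do.

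Depth was low by the counts as deposited, with 628581 to 782297 estimated counts in a library, of which the single gene Lars2 held 37.5% to 45.7%. In 5xFAD libraries 10490, 11780 and 11162 genes reached 0.5 counts, against 9170, 10381 and 7929 in WT libraries, without overlap. Counts outside Lars2 were 433338, 466345 and 423160 in 5xFAD libraries and 402532, 389283 and 341461 in WT libraries, also without overlap. Depth and number of detected genes thus moved with genotype, and their part in the results on TGF-beta genes was not tested. One count was worth 1.28 to 1.59 CPM (counts scaled to library depth). The 10 TGF-beta genes together held 0.0669% to 0.0944% of a library's counts. Of 14 listed B cell markers, 13 were in the table, all with counts, and their summed level was 806, 830 and 462 FPKM in 5xFAD libraries and 435, 345 and 356 FPKM in WT libraries. Markers of other lung cells were also present: the 14 endothelial markers summed to 539, 505 and 449 FPKM in 5xFAD libraries and 562, 705 and 614 FPKM in WT libraries. For each of fibroblasts, alveolar epithelium, macrophages and neutrophils, the marker sum overlapped between genotypes. Erythroid markers summed to 5.61 to 13.2 FPKM in 5xFAD libraries and were listed at 0 in all WT libraries. These marker differences move with genotype, and their part in the results on TGF-beta genes was not tested.

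App, the mouse gene whose locus in the table also holds 5 other genes, had 30.9 to 43.6 FPKM in 5xFAD libraries and 27.8 to 52.4 FPKM in WT libraries. Thy1 had 2.16 to 7.64 FPKM in 5xFAD libraries and 0 to 0.965 FPKM in WT libraries, without overlap. How reads of the human transgenes were assigned to mouse genes was not analysed here, so the values check the labels only in part. Of 10 listed T cell markers, 9 were in the table. In FPKM, 2 were higher and 0 lower in every 5xFAD library than in any WT library. Without overlap in either direction were 17.4% of all tested genes. The sum of the T cell list overlapped between genotypes, and the part of T cells in the Thy1 difference was not tested.

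Of the ligands, Tgfb1 (ENSMUSG00000002603, chr7:25687002-25705077, plus strand) is the main isoform of immune cells. Its levels were 75.5, 36.5 and 21.5 FPKM in 5xFAD libraries, against 20.2, 49.1 and 48.3 FPKM in WT libraries. The highest library was 5xFAD replicate 1 and the lowest was WT replicate 1, and the groups overlapped. The means were 44.5 ± 27.9 FPKM in 5xFAD and 39.2 ± 16.4 FPKM in WT (SD, n = 3 each). In estimated counts, Tgfb1 had 127.7, 127.7 and 62.4 in 5xFAD libraries and 57.3, 88.4 and 49.9 in WT libraries. The log2 fold change was 0.60 (SE 0.47, 95% interval -0.36 to 1.57, adjusted p = 0.686 by edgeR).

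Tgfb2 (ENSMUSG00000039239, chr1:186623186-186705992, minus strand), an isoform typical of epithelium and mesenchyme, was detected in 1 library. It had 9.46 estimated counts, or 12.1 CPM and 1.01 FPKM, in 5xFAD replicate 2. It was listed at 0 in the other 2 5xFAD libraries and in all 3 WT libraries. A count of 0 in those 5 libraries allows up to 4.25 to 4.77 CPM, taking 3 counts as the limit and counting error only, so no difference between genotypes can be read at this depth.

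Tgfb3 (ENSMUSG00000021253, chr12:85824659-86079041, minus strand), the isoform known from palate and mesenchyme development, was low. Its levels were 1.82, 1.72 and 5.14 FPKM in 5xFAD libraries, against 0.450, 0.761 and 3.79 FPKM in WT libraries. Replicate 3 of each genotype was the highest of its group and the groups overlapped. For Tgfb3 the log2 fold change was 0.58 (SE 1.16, adjusted p = 0.901 by edgeR). The Tgfb3 row covers a locus that the table shares with Ttll5, a tubulin glutamylase gene on the opposite strand, which had 1.03, 8.23 and 2.65 FPKM in 5xFAD libraries and 11.8, 4.47 and 24.3 FPKM in WT libraries. With the 2 genes of the locus summed, the log2 fold change was -0.73 (adjusted p = 0.757 by edgeR), a value that also holds the reads of Ttll5. How far reads of the locus were divided between the 2 genes was not tested.

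**Figure D2:**
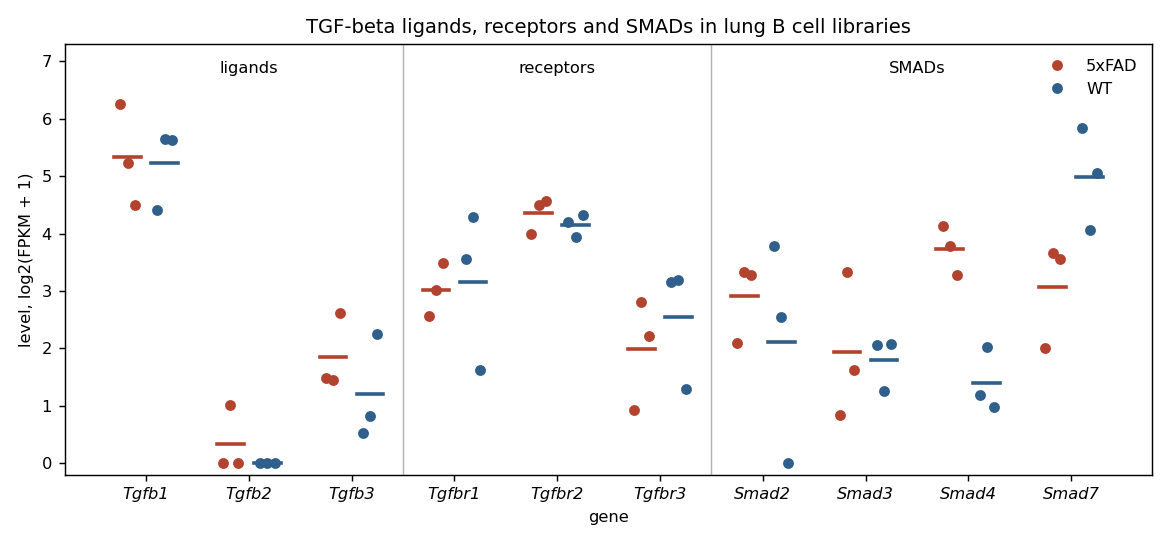
Level of each of the 10 genes in every library, as log2(FPKM + 1), with 5xFAD libraries in red and WT libraries in blue; bars are group means. Smad4 and Smad7 are the genes whose points of the 2 genotypes do not overlap.

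Of the receptors, Tgfbr2 (ENSMUSG00000032440, chr9:116087698-116175363, minus strand), the type II receptor that binds the ligand, varied little. It had 14.8, 21.7 and 22.7 FPKM in 5xFAD libraries, against 17.5, 14.3 and 19.1 FPKM in WT libraries. The groups overlapped, with a mean of 19.7 ± 4.29 FPKM in 5xFAD and 16.9 ± 2.42 FPKM in WT (SD, n = 3 each). The log2 fold change was 0.07 (SE 0.36, 95% interval -0.66 to 0.81, adjusted p = 0.968 by edgeR).

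Tgfbr1 (ENSMUSG00000007613, chr4:47353222-47414931, plus strand), the type I receptor kinase that phosphorylates SMAD2 and SMAD3, had 4.89, 7.12 and 10.3 FPKM in 5xFAD libraries, against 10.8, 18.4 and 2.09 FPKM in WT libraries. The WT libraries held both the highest and the lowest value. In estimated counts, the 5xFAD libraries had 55.9, 57.7 and 66.1 and the WT libraries 61.3, 149.7 and 23.9. The fitted log2 fold change of Tgfbr1 was -0.47 (SE 0.55, 95% interval -1.60 to 0.66, adjusted p = 0.811 by edgeR), and without WT replicate 2 it was 0.37.

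Tgfbr3 (ENSMUSG00000029287, chr5:107106570-107289629, minus strand), or betaglycan, is a coreceptor that presents ligand to TGFBR2. Its levels were 0.907, 5.99 and 3.64 FPKM in 5xFAD libraries, against 7.93, 8.13 and 1.46 FPKM in WT libraries. Of the WT libraries, replicates 1 and 2 lay above all 5xFAD libraries, and replicate 3 lay below 2 of them. Tgfbr3 had a log2 fold change of -1.23 (SE 0.65, 95% interval -2.57 to 0.11, unadjusted p = 0.0697 and adjusted p = 0.466 by edgeR).

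Of the SMADs, Smad4 (ENSMUSG00000024515, chr18:73639009-73703780, minus strand), the common partner of receptor-activated SMADs, was higher in every 5xFAD library than in any WT library. It had 71.7, 70.9 and 56.0 estimated counts in 5xFAD libraries, against 0.749, 14.1 and 5.20 in WT libraries. In FPKM it had 16.5, 12.7 and 8.68 in 5xFAD libraries, against 1.29, 3.08 and 0.981 in WT libraries. The means were 12.6 ± 3.90 FPKM in 5xFAD and 1.78 ± 1.13 FPKM in WT (SD, n = 3 each), a ratio of 7.07, and the ratio of mean counts was 9.93. Smad4 had a log2 fold change of 3.18 (SE 0.84, 95% interval 1.45 to 4.90). Its p was 0.000774 unadjusted and 0.194 adjusted over all genes by edgeR, which does not pass the threshold.

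The Smad4 call depended on the setting. DESeq2 gave an adjusted p of 0.0246, and edgeR without the filter on low values gave 0.0381. Over 17 alternatives the adjusted p ran from 0.0246 to 0.811, with log2 differences from 2.32 to 4.21. WT replicate 1 held under 1 estimated count for this gene, and its FPKM per count was 1.73, against 0.155 to 0.230 in the other 5 libraries.

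Smad7 (ENSMUSG00000025880, chr18:75367365-75395935, plus strand), the inhibitory SMAD, was lower in every 5xFAD library than in any WT library. It had 3.00, 11.7 and 10.7 FPKM in 5xFAD libraries, against 56.2, 15.7 and 32.2 FPKM in WT libraries. In estimated counts it had 25.3, 98.4 and 80.2 in 5xFAD libraries, against 142.0, 132.6 and 122.7 in WT libraries. In FPKM the 3 WT libraries spread widely and in counts they lay close together. Mean FPKM was 8.47 ± 4.76 in 5xFAD and 34.7 ± 20.3 in WT (SD, n = 3 each), which made WT 4.10 times higher in FPKM and 1.95 times higher in mean counts. For Smad7 the log2 fold change was -1.16 (SE 0.45, 95% interval -2.08 to -0.24, unadjusted p = 0.0156 and adjusted p = 0.316 by edgeR). It passed the threshold under none of the 17 alternatives, where the adjusted p ran from 0.223 to 0.811 and the log2 difference from -2.06 to -0.82.

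**Figure D3:**
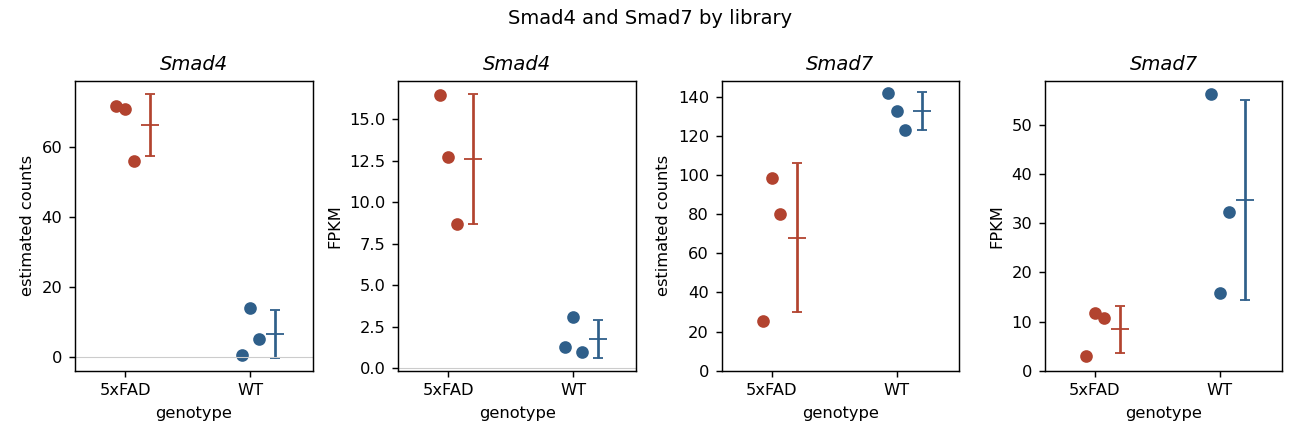
Smad4 and Smad7 in each library in estimated counts and FPKM, with 5xFAD libraries left of WT libraries; points are libraries, and bars are means ± SD (n = 3). The 5xFAD points lie above all WT points for Smad4 and below them for Smad7, in both units.

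Smad2 and Smad3 are the receptor-activated SMADs. Smad2 (ENSMUSG00000024563, chr18:76241580-76305731, plus strand) had 3.30, 9.08 and 8.72 FPKM in 5xFAD libraries, against 12.8, 4.82 and 0 FPKM in WT libraries. It was listed at 0 in WT replicate 3, and the groups overlapped. Smad2 had a log2 fold change of 0.34 (SE 1.07, 95% interval -1.85 to 2.53, adjusted p = 0.944 by edgeR). Smad3 (ENSMUSG00000032402, chr9:63646767-63758111, minus strand) had 0.793, 9.02 and 2.10 FPKM in 5xFAD libraries, against 3.14, 1.40 and 3.22 FPKM in WT libraries. The single high value in 5xFAD replicate 2 was 9.02 FPKM, while its 23.6 estimated counts were close to the 21.1 of 5xFAD replicate 3. The log2 fold change was -0.10 (SE 1.06, 95% interval -2.27 to 2.07, adjusted p = 0.987 by edgeR).

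By mean FPKM over the 6 libraries, the order of levels was Tgfb1 (41.9), Smad7 (21.6), Tgfbr2 (18.3), Tgfbr1 (8.93), Smad4 (7.20), Smad2 (6.45), Tgfbr3 (4.68), Smad3 (3.28), Tgfb3 (2.28) and Tgfb2 (0.169). Tgfb1 stood at percentile 97.0 among tested genes and Tgfb3 at percentile 22.2. The mean of Tgfb1 was 18.4 times that of Tgfb3 and 248 times that of Tgfb2. Most neighbours in this order did not separate: the higher of a pair was above the lower in 5 of 6 libraries for Tgfb1 over Smad7 and for Tgfbr2 over Tgfbr1, in 6 of 6 for Tgfb3 over Tgfb2, and in 3 or 4 of 6 for the rest. Tgfbr2 was above Tgfbr3, and Tgfb1 above Tgfb3, in all 6 libraries. Smad4 was above Smad7 in 2 of 3 5xFAD libraries and in 0 of 3 WT libraries, in FPKM.

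Summed by role, the ligands gave 77.4, 39.3 and 26.7 FPKM in 5xFAD libraries, against 20.7, 49.8 and 52.0 FPKM in WT libraries. The receptors gave 20.6, 34.8 and 36.6 FPKM in 5xFAD libraries, against 36.2, 40.9 and 22.6 FPKM in WT libraries. The 4 SMADs gave 23.6, 42.5 and 30.2 FPKM in 5xFAD libraries, against 73.4, 25.04 and 36.4 FPKM in WT libraries. All 3 sums overlapped between genotypes, and the opposite differences of Smad4 and Smad7 stand inside the SMAD sum.

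FPKM and counts did not always keep the same ratio for a gene. The highest FPKM per count over the lowest was 11.1 for Smad4, 5.20 for Smad3, 3.38 for Tgfb1 and 3.33 for Smad7, while it was 1.02 for Tgfbr2 and 1.002 for Tgfb3. Over 6194 genes with at least 0.5 counts in every library the median of this ratio was 1.72, and 43.8% of them exceeded 2. The sign of the difference of mean log2(FPKM + 1) was the sign of the count fit in 8 of 9 genes, Smad3 being the exception.

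No gene of the 8 other pathway lists passed an adjusted p of 0.05 by edgeR. DESeq2 called 1, Gdf11, which met the minimum mean FPKM through the 5xFAD libraries alone, and limma called none. An unadjusted p under 0.05 was reached by 8.46% of all tested genes as higher and 3.55% as lower in 5xFAD. At that p, 1 of 16 tested storage and activation genes was lower in 5xFAD, 2 of 8 coreceptors and other receptors were lower, 1 of 27 SMAD regulators was lower and 1 of 19 non-SMAD signalling genes was higher. For IgA switching and B cell responses, 1 of 8 was higher and 1 lower, and for BMP and activin ligands and inhibitors 1 of 7 was higher. None of the 21 tested nuclear partners and none of the 30 tested transcriptional targets reached an unadjusted p under 0.05, beside 12.0% of all tested genes in either direction. List medians of log2 fold change were 0.13 for storage and activation, -0.36 for coreceptors, 0.41 for SMAD regulators, 0.05 for nuclear partners, 0.10 for non-SMAD signalling, 0.06 for targets, -0.27 for IgA and B cell responses and -1.09 for BMP and activin ligands, beside 0.11 over all genes tested. Some genes stand in 2 lists. No direction is read from these medians: over the 17 alternatives 7 of the 8 had the other sign at least once, SMAD regulators being the exception. Their range was -0.30 to 0.35 for storage and activation, -0.52 to 0.25 for coreceptors, 0.0008 to 0.59 for SMAD regulators, -0.08 to 0.29 for nuclear partners, -0.25 to 0.25 for non-SMAD signalling, -0.15 to 0.18 for targets, -0.61 to 0.63 for IgA and B cell responses and -1.28 to 0.72 for BMP and activin ligands. The BMP and activin median was -0.16 without WT replicate 1, and that of IgA and B cell responses was 0.57 without it.

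Among storage and activation genes, Itgb1, an integrin subunit whose locus is shared with Nrp1, had 33.3 ± 7.63 FPKM in 5xFAD and 18.3 ± 11.5 FPKM in WT (log2 fold change 0.30, SE 0.43, adjusted p = 0.845 by edgeR). Nrros, which anchors latent TGF-beta on myeloid cells, had 19.1 ± 3.58 FPKM in 5xFAD and 16.3 ± 7.71 FPKM in WT (0.19, SE 0.49, adjusted p = 0.929 by edgeR). Mmp9, a protease that can release latent TGF-beta, had 3.00, 6.15 and 6.45 FPKM in 5xFAD libraries, against 12.99, 10.7 and 28.9 FPKM in WT libraries. These groups did not overlap. The Mmp9 log2 fold change was -2.16 (SE 0.66, unadjusted p = 0.00281 and adjusted p = 0.245 by edgeR).

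Of the SMAD regulators, Usp9x, a deubiquitinase of SMAD4, had 31.5 ± 19.5 FPKM in 5xFAD and 13.8 ± 8.58 FPKM in WT, with log2 fold change 0.41 (SE 0.35, adjusted p = 0.720 by edgeR); its locus is shared with Med14. Fkbp1a, which binds the type I receptors, had 37.1 ± 27.6 FPKM in 5xFAD and 36.6 ± 28.9 FPKM in WT. Of the nuclear partners, Fos had 79.7 ± 10.1 FPKM in 5xFAD and 67.2 ± 23.5 FPKM in WT, and Junb had 63.7 ± 15.2 FPKM in 5xFAD and 52.8 ± 12.99 FPKM in WT. Both are AP-1 factors, with log2 fold changes of 0.05 and 0.17.

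Among non-SMAD mediators, Map3k7, the TAK1 kinase, had 99.7, 37.8 and 47.7 estimated counts in 5xFAD libraries, against 21.7, 8.04 and 23.9 in WT libraries, a log2 fold change of 1.72 (SE 0.72, unadjusted p = 0.0235 and adjusted p = 0.337 by edgeR). The counts did not overlap and the FPKM did. Grb2, an adaptor, had 55.6 ± 39.3 FPKM in 5xFAD and 24.1 ± 3.66 FPKM in WT, but 84.5 ± 9.67 estimated counts in 5xFAD and 120.7 ± 26.2 in WT. For Grb2 the units thus went opposite ways, and the log2 fold change of counts was -0.64 (SE 0.42, adjusted p = 0.586 by edgeR). Rhoa, a GTPase, had 39.4 ± 13.2 FPKM in 5xFAD and 35.4 ± 16.3 FPKM in WT.

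Transcriptional targets of TGF-beta gave no called gene. Col1a1, a collagen of fibroblasts, had 49.6 ± 47.5 FPKM in 5xFAD and 9.21 ± 1.78 FPKM in WT. Its estimated counts were 154 ± 40.0 in 5xFAD and 108 ± 21.0 in WT, and its log2 fold change was 0.38 (SE 0.39, adjusted p = 0.769 by edgeR). Skil, a SMAD corepressor induced by the pathway, was picked after its values were seen. It had 24.2 ± 7.71 FPKM in 5xFAD and 20.8 ± 6.04 FPKM in WT (adjusted p = 0.958 by edgeR). Ctgf, also picked after its values were seen, had 1.74, 3.30 and 3.20 FPKM in 5xFAD libraries, against 5.61, 10.5 and 6.35 FPKM in WT libraries. These did not overlap, with log2 fold change -1.58 (SE 0.89, unadjusted p = 0.0876 and adjusted p = 0.506 by edgeR).

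In the IgA and B cell list, Itga4, an integrin subunit of lymphocyte homing whose locus is shared with Cerkl and Neurod1, had 63.5, 40.2 and 35.3 FPKM in 5xFAD libraries, against 31.8, 22.4 and 29.5 FPKM in WT libraries, without overlap. Its log2 fold change was 0.76 (SE 0.32, unadjusted p = 0.0272 and adjusted p = 0.347 by edgeR). Igj, the joining chain of IgA and IgM, had 9.81, 9.66 and 29.2 FPKM in 5xFAD libraries, against 58.8, 18.9 and 33.2 FPKM in WT libraries. Its groups overlapped, with log2 fold change -1.29 (SE 0.56, unadjusted p = 0.0291 and adjusted p = 0.351 by edgeR). Runx3, a factor that TGF-beta uses in IgA switching, was picked after its values were seen: counts were 66.8, 48.2 and 58.7 in 5xFAD libraries and 24.7, 38.2 and 32.2 in WT libraries, without overlap, with a log2 fold change of 0.77 (SE 0.62, adjusted p = 0.692 by edgeR). The genes Igha and Ighg2b were not analysed here.

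The BMP side of the superfamily shares the inhibitory SMADs with TGF-beta. Acvrl1 (ALK1), a type I receptor of vascular endothelium, had 20.1, 42.4 and 24.1 FPKM in 5xFAD libraries, against 45.4, 77.6 and 45.4 FPKM in WT libraries, without overlap. Acvrl1 had a log2 fold change of -0.98 (SE 0.34, unadjusted p = 0.00736 and adjusted p = 0.290 by edgeR). Bmpr2, the type II receptor for BMPs, had 19.4, 37.6 and 30.0 FPKM in 5xFAD libraries, against 32.1, 51.9 and 56.1 FPKM in WT libraries, with overlap. Its log2 fold change was -0.87 (SE 0.34, unadjusted p = 0.0178 and adjusted p = 0.321 by edgeR). Eng, an endothelial coreceptor whose locus is shared with Ak1 and Fpgs, had 39.3 ± 2.82 FPKM in 5xFAD and 37.5 ± 18.8 FPKM in WT.

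The other inhibitory SMAD, Smad6, had 1.56, 13.3 and 5.26 FPKM in 5xFAD libraries, against 15.5, 16.7 and 20.6 FPKM in WT libraries, without overlap. Its log2 fold change was -1.63 (SE 0.56, unadjusted p = 0.00756 and adjusted p = 0.291 by edgeR). The ligand Bmp6 had 3.89, 8.61 and 7.35 FPKM in 5xFAD libraries, against 13.3, 15.2 and 9.71 FPKM in WT libraries, without overlap, and its log2 fold change was -1.09 (SE 0.62, adjusted p = 0.513 by edgeR). Nbl1, a BMP antagonist, had 4.34 ± 3.07 FPKM in 5xFAD and 7.94 ± 2.28 FPKM in WT. Gdf11, another superfamily ligand, was listed at 36.9, 27.4 and 11.01 estimated counts in 5xFAD libraries and at 0 in all WT libraries, with an unadjusted p of 0.000517 and an adjusted p of 0.190 by edgeR. Gdf11 was called by DESeq2, without the filter and without WT replicate 3. Its mean was 3.15 FPKM in 5xFAD and 0 in WT. In the main fit it thus met the minimum mean of 1 FPKM through the 5xFAD libraries alone, a limit on its p-values.

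Other genes of these lists went both ways. Of the 8 tested coreceptors and other receptors, 4 had a log2 fold change above 0 and 4 below. Of the 7 tested BMP and activin ligands and inhibitors, 2 were above 0 and 5 below. The receptors Bmpr1a and Acvr1, also picked after their values were seen, had log2 fold changes of -1.24 (SE 1.15) and -1.45 (SE 1.41). The estimated counts of Bmpr1a did not overlap, and its FPKM did. For Acvr1 the units went opposite ways, with mean FPKM of 2.90 in 5xFAD and 2.42 in WT, and its groups overlapped in both. Fstl1, a secreted follistatin-like protein picked after its values were seen, had 5.10, 6.84 and 17.0 FPKM in 5xFAD libraries, against 0.400, 0.135 and 0.701 FPKM in WT libraries. Its groups did not overlap, with a log2 fold change of 2.63 (SE 1.33, unadjusted p = 0.0589 and adjusted p = 0.445 by edgeR). With means of 9.64 FPKM in 5xFAD and 0.412 FPKM in WT, Fstl1 also met the minimum mean through the 5xFAD libraries alone. The activin receptors Acvr2a and Acvr1b had log2 fold changes of 2.19 (SE 1.37) and 0.67 (SE 0.96), and Smad5, a SMAD of BMP receptors, had 0.41 (SE 0.64); all 3 groups of values overlapped between genotypes. The summed endothelial markers were also lower in 5xFAD (498 ± 45.1 FPKM) than in WT (627 ± 72.1 FPKM; SD, n = 3 each), while the summed B cell markers were 699 ± 206 FPKM in 5xFAD and 379 ± 49.2 FPKM in WT. Of the 14 endothelial markers, 4 were lower and 1 was higher in every 5xFAD library than in any WT library in FPKM, where 17.4% of all tested genes did not overlap in either direction. Of the 13 B cell markers in the table, 0 were lower and 6 were higher in that sense. In estimated counts, the endothelial markers Vwf and Tmem100 stayed lower without overlap, while Ramp2, Emcn and Egfl7 overlapped. The 6 B cell markers did not overlap in counts either. By counts, 14.3% of all tested genes were higher and 3.98% were lower without overlap. The part of these markers in the differences of Acvrl1, Bmpr2, Bmp6, Smad6 and Smad7 was not tested.

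**Figure D4:**
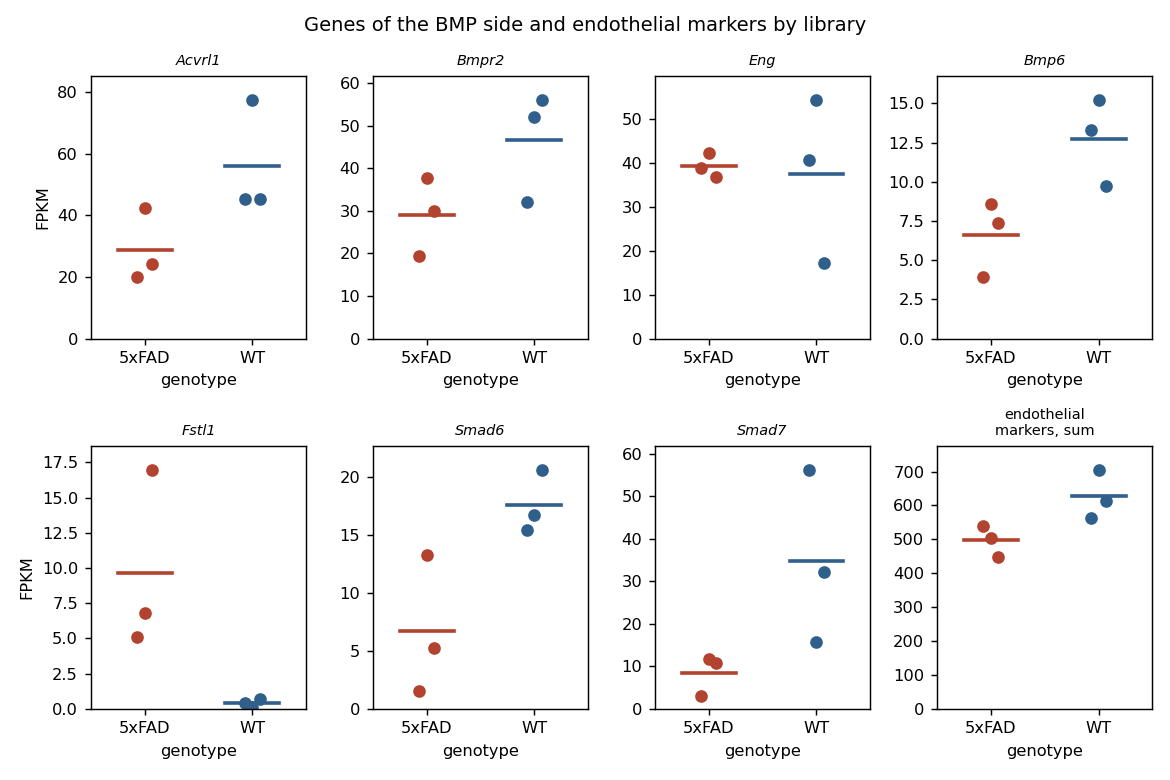
Levels in FPKM of Acvrl1, Bmpr2, Eng, Bmp6, Fstl1, Smad6 and Smad7, picked with their values known, and the summed FPKM of 14 endothelial markers, in each library, with 5xFAD left of WT; points are libraries and bars are means. Every 5xFAD point lies under all WT points for Acvrl1, Bmp6, Smad6, Smad7 and the marker sum and above them for Fstl1, and the groups overlap for Bmpr2 and Eng.

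Genes whose profile over the 6 libraries lay nearest to the most abundant ligand, receptor and SMAD were found by the root mean square distance of centred log2(FPKM + 1). For Tgfb1 they were Man2a1 (0.164), Ppp1r9b (0.179) and Utp11l (0.205). For Tgfbr2 they were Rpl39 (0.0635), Ero1lb (0.121) and Zkscan8 (0.125), and for Smad7 they were Lamtor3 (0.0982), Krt79 (0.169) and Ntn4 (0.220). These distances describe 6 libraries that share depth and preparation, and carry no test.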

How the data were processed

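Lung B cell RNA was depleted of ribosomal RNA and made into stranded libraries, as the labels' protocols say. Tools named in the submitters' processing notes are Cufflinks, Cuffdiff, HISAT2 2.0.4 and cutadapt 1.9.3, with the builds GRCm38 and mm10. What each tool did and which gene annotation was used are not given in the sources used here. For every gene and library the deposited table gives an FPKM and an estimated count, per the file headers. FPKM scales a count by transcript length and library depth, yet FPKM per count of many genes differed between libraries. For Tgfb3 and Tgfbr2 it was nearly the same in all 6 libraries (1.002-fold and 1.02-fold). Totals of the counts ran from 628581 to 782297. The deposited counts thus seem already scaled between libraries, by a step that the sources used here do not describe. They were taken as deposited for totals, CPM, limits for a count of 0 and, after rounding, the fit. Where a row's locus holds several genes, the division of reads among them was the authors'.

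Rows sharing a symbol (162 rows on 79 symbols) were summed, and starts were raised by 1 to count from 1. After rounding, the estimated counts of the 9651 genes averaging 1 FPKM or more entered edgeR 4.0.16 in R 4.3.3 (quasi-likelihood test, TMM factors, genotype alone in the design), with Benjamini-Hochberg adjustment. DESeq2 1.42.0 and limma 3.58.1 on log2(FPKM + 1) were alternatives. The fit was tested on simulated data. Between pairs of libraries a chi-square of counts, divided by its degrees of freedom, was 6.44 to 20.8, so every pair differed beyond sampling noise. Limits given for a count of 0 cover counting error only.

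The 10 genes and the lists were chosen with earlier results of these data known. Named genes were the 10 genes, the 2 most abundant and up to 3 with the smallest unadjusted p under 0.05 of each list, App, Thy1, Lars2 and the nearest profiles; not every gene these rules select is reported here.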

Additional observations from a re-analysis of the deposited data

How the results depend on the processing

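Of 17 alternatives, 15 called 0 of the 9 tested TGF-beta genes. DESeq2's Wald test and edgeR with no filter on low values each called 1, Smad4. Over all genes the count called was 11; it was 7 with DESeq2 size factors in edgeR, 27 with upper-quartile factors, 62 by the DESeq2 Wald test, 0 by limma with a pseudocount of 1 or 0.1, 62 with no filter, 5 above a mean of 5 FPKM, 7 with at least 10 counts in 3 libraries and 6 with rows summed by locus. Leaving out 1 library gave 3 to 75 genes, the extremes being without 5xFAD replicate 1 and without WT replicate 3; it was 18 and 27 without 5xFAD replicate 2 or 3 and 67 and 4 without WT replicate 1 or 2. At an unadjusted p under 0.05 the split was 816 higher and 343 lower by edgeR, 699 and 390 with upper-quartile factors, and 887 and 261 by limma with a pseudocount of 1, where 0 were called. The median log2 difference of all genes was 0.11 by edgeR, 0.04 with upper-quartile factors and 0.24 by limma.

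Leaving out 1 library moved the log2 fold change of Smad4 between 2.65 and 4.21, with an adjusted p of 0.0617 to 0.811 by edgeR, and that of Smad7 between -1.48 and -0.82; neither passed the threshold. The ranges were 0.28 to 0.82 for Tgfb1, -0.18 to 2.06 for Tgfb3, -0.999 to 0.37 for Tgfbr1, -0.12 to 0.16 for Tgfbr2, -1.74 to -0.88 for Tgfbr3, -0.30 to 1.43 for Smad2 and -0.53 to 0.61 for Smad3. Other changes of direction were -0.73 for Tgfb3 with its locus summed, which adds Ttll5 reads, and for Smad3 0.14 and 0.0495 by limma with a pseudocount of 1 or 0.1 and 0.0909 under the replicate block, whose cause was not tested.

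With the replicate block, 26 genes were called in all, 0 of them among the 9, and Smad4 had a log2 fold change of 3.47 (adjusted p = 0.0610 by edgeR). The labels tie the replicate numbers to no shared source. Deviations of same-numbered libraries from their group means correlated at -0.0169 to 0.0218, and not every library correlated best with its own number, so the numbers were not taken as pairs.

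At this depth a count of 0 allows 3.83 to 4.77 CPM, which covers Tgfb2 in the 5 libraries where it was listed at 0. The intervals of Smad2, Smad3 and Tgfb3 were wide; the shares of depth and of spread between libraries in them were not tested.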
